A study of Mus musculus with 24 samples.

Results

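Ribosome biogenesis factors are the nucleolar proteins that make ribosomal RNA, modify it, cut it and fold it into ribosomal subunits. 48 mouse genes for such proteins were followed here, listed by name for their role with earlier results of these data known. Shares of all genes beside their counts are given for scale and are no test of the list. Of the 48 genes, 43 had a named probe on the array and 37 had a probe detected above background on at least 4 of the 24 arrays, out of 8820 genes measured in this way. No named probe stood for Noc2l, Utp20, Utp18, Wdr43 and Polr1b, and the probes of Dkc1, Nolc1, Bysl, Wdr12, Nop16 and Rrs1 were not detected on enough arrays. Of the 37 measured genes, 32 were detected on all 24 arrays. Utp15 was detected on 4 arrays, Tsr1 on 12, Nat10 on 13, Ppan on 21 and Ftsj3 on 23.

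The cells were thymocytes of C57BL/6J mice that carried both working copies of the IL7 receptor gene (Il7r+/+), and every group shared this background. All were double negative (DN) for CD4 and CD8, lacked other lineage markers and KIT, and were sorted as 3 subsets. DN3a cells carried CD25, were low in the transferrin receptor CD71 and were small; DN3b cells carried CD25, were high in CD71 and were large; DN4 cells had lost CD25, were high in CD71 and were large. After 1 h of rest, each subset from each of 4 sorts was cultured for 3 h untreated or with 10 ng/ml of interleukin 7 (IL7), a cytokine needed by early thymocytes, which gave 6 groups of 4 arrays. The submitters' text also speaks of technical replicates without saying which arrays these are, so n and p take the 4 sorts as independent, as labelled; how many animals stand behind a sort is not given in the sources used here.

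Ribosome assembly starts in the nucleolus, where RNA polymerase I transcribes a long precursor RNA. Small nucleolar ribonucleoproteins (snoRNPs) of the box C/D type methylate it and those of the box H/ACA type convert uridines to pseudouridines, while separate sets of factors build the small and the large subunit. The pathway is known for its rise in growing cells, many of its genes are known targets of the transcription factor MYC, and thymocytes grow and divide quickly once they pass beta-selection, the checkpoint between DN3a and DN3b.

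The promoters of 43 of the 48 genes were available from RefSeq, with the coordinates of build GRCm38.p6, as windows of 300 bases from 250 before to 50 after the gene's start. They were searched for CACGTG, the palindromic E-box that MYC and related proteins can bind, which reads the same on both strands. The E-box was present in at least 1 window of 10 of the 43 genes, 23.3%, and in 2187 of 27025 genes with a window in the table, 8.09%. By window it was 10 of 47, 21.3%, against 2349 of 32851, 7.15%. Among other ribosome biogenesis genes, 18 of 100 held it. It was present in 3 of the 20 genes with a window that rose with IL7 in DN3a cells and in 4 of the 13 measured genes with a window that did not pass that test. A match is a stretch of letters and does not show binding, and these counts were not tested. Gar1, Polr1a and Nop56 are shown because they rose with IL7 and differed between stages, Pes1 because it holds the E-box and passed no test, and Nle1 and Mybbp1a because they rose and hold the E-box; Pes1, Nle1 and Mybbp1a were picked after the match was seen. E-box letters stand in capitals and the rest in lower case, 5′ to 3′ on the strand of the gene. The windows lie at chr3:129831347-129831646 on the minus strand (Gar1), chr6:71908803-71909102 on the plus strand (Polr1a), chr2:130274162-130274461 on the plus strand (Nop56), chr11:3963725-3964024 on the plus strand (Pes1), chr11:82908346-82908645 on the minus strand (Nle1) and chr11:72441077-72441376 on the plus strand (Mybbp1a).
Gar1: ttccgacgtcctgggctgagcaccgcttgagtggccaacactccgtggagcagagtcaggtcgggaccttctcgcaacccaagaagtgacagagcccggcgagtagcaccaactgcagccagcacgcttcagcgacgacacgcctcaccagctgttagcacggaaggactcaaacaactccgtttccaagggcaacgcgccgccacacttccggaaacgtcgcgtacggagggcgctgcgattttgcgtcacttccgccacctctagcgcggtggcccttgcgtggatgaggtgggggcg
Polr1a: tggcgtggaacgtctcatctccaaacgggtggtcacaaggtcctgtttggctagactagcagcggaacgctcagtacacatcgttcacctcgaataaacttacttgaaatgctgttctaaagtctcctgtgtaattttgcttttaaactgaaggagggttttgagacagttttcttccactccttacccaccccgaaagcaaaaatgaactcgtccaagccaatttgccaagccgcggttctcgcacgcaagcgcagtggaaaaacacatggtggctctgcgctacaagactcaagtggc
Nop56: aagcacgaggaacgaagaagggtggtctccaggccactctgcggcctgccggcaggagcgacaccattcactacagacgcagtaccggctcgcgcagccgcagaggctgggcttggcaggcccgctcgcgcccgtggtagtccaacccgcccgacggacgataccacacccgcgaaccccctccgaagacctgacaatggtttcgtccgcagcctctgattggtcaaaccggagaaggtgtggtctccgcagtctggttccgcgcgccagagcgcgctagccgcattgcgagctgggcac
Pes1: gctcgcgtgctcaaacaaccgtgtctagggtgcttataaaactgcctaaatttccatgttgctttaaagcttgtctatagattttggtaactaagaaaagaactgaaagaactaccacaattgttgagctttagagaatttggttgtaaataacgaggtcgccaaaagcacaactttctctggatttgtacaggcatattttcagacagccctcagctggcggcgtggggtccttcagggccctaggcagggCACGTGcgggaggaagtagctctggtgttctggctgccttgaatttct
Nle1: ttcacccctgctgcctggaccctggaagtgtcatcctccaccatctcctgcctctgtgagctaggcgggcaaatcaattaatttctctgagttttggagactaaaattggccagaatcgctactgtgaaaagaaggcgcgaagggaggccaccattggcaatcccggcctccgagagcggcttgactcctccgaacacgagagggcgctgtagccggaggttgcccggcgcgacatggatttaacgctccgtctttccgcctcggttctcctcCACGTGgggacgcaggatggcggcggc
Mybbp1a: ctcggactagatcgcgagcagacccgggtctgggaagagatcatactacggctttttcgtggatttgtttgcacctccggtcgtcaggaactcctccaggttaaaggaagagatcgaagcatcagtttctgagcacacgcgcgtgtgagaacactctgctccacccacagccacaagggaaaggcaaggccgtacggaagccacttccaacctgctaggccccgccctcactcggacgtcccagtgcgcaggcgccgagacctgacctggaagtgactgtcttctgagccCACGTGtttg
Counting from the start base, the E-box begins 2 bases downstream in Pes1, 23 in Nle1 and 40 in Mybbp1a. The windows of Gar1, Polr1a and Nop56 do not contain these letters, which says nothing about more distant sites.

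The arrays resembled each other closely, with a correlation of 0.978 to 0.993 between arrays of 1 group. The T cell genes Cd3e, Cd3g, Cd3d, Thy1, Rag1, Bcl11b and Zap70 were detected on all 24 arrays, and Il2ra, which encodes CD25, differed between untreated DN4 and untreated DN3b cells by -2.86 ± 0.17 (SE) on the log2 scale (limma adjusted p = 4.31e-05). Tfrc, which encodes CD71, did not follow the gates in all subsets: its mean log2 signal was 11.15 ± 0.28 (SD, n = 4) in untreated DN3a, 11.95 ± 0.16 in untreated DN3b and 11.20 ± 0.13 in untreated DN4 cells. DN4 cells, gated as high in CD71, thus differed from DN3a cells, gated as low, by 0.05 ± 0.10 (SE, adjusted p = 0.715), with overlap. Transcripts of other cell types moved with the sort. The globin gene Hba-a1 was detected on the 12 arrays of sorts 1 and 3 and on none of sorts 2 and 4, and of the 5 erythroid markers listed 3 had a named probe, Alas2 among them with 0 arrays detected; the summed linear signal of the 2 kept markers ran from 56 to 1443 in untreated and from 57 to 1293 in IL7-treated DN3a cells. Of 5 granulocyte markers, 4 were kept, and their summed signal ran from 97 to 7441 in untreated DN4 cells against 94 to 300 in untreated DN3b cells, with S100a8 at a log2 signal of 12.39 and 12.29 in untreated DN4 cells of sorts 2 and 3. In DN3a cells, this granulocyte sum was 181 to 1051 untreated and 139 to 797 with IL7. Defining markers of B, natural killer, dendritic and stromal cells (Cd79a, Ncr1, Itgax, Krt5, Col1a1 and Pdgfra) were detected on 0 arrays, but others of the same lists were detected: Cd79b, Nkg7 and Irf8 on all 24 arrays, the B cell gene Ms4a1 on 9, the dendritic cell gene Siglech on 6 and the natural killer gene Klrb1c on 2. With IL7 in DN3a cells, the natural killer list, of which Nkg7 alone was kept, went from a signal of 1807 to 2222 to one of 2741 to 3856, the dendritic sum from 137 to 196 to one of 198 to 232, and the B cell sum from 1149 to 1613 to one of 1190 to 1487. The part of these transcripts in the results was not tested. Counts below are therefore also given without sorts 1 and 3 and without sorts 2 and 3. In sorted bulk samples, fewer cells of a type and less RNA per cell cannot be told apart.

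IL7 raised most ribosome biogenesis factors in DN3a cells. After 3 h, 23 of the 37 measured genes were higher and 0 were lower at an adjusted p under 0.05 (limma, Benjamini-Hochberg over 8820 genes), where 9.44% of all genes were higher and 11.5% lower. The median log2 change of the 37 genes was 0.46, a 1.37-fold rise, against -0.03 over all genes, and 35 of the 37 changes were above 0. In 14 genes the IL7-treated and untreated cultures did not overlap, all with IL7 higher; among all genes, 7.17% were higher and 7.36% lower without overlap. The median change was 0.36 in sort 1, 0.37 in sort 2, 0.44 in sort 3 and 0.66 in sort 4.

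**Figure D1:**
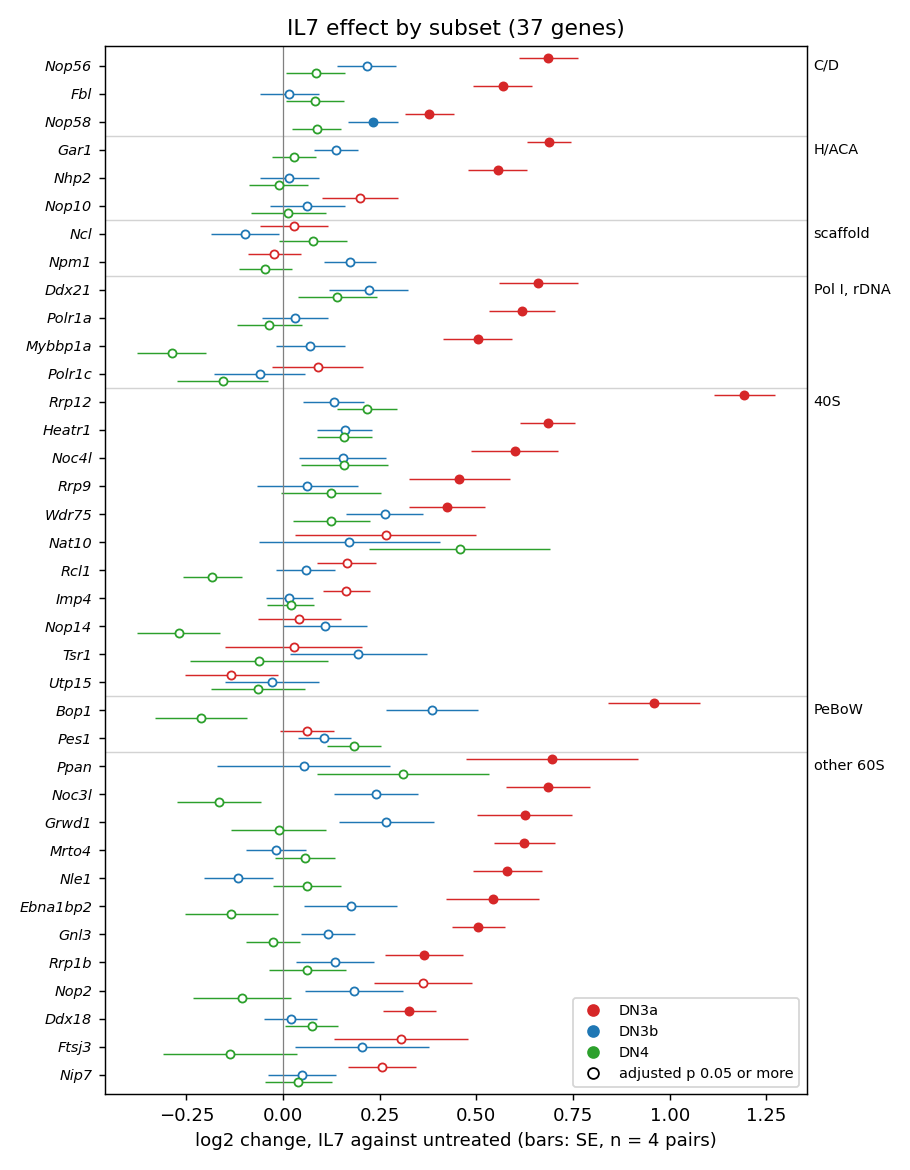
Log2 change between IL7-treated and untreated cultures (x axis) of 37 ribosome biogenesis factors grouped by role (y axis). Subsets are DN3a (red), DN3b (blue) and DN4 (green) cells. Bars are limma's moderated SE for 4 pairs of cultures per subset, with a spread estimate shared by all subsets. Filled points have an adjusted p under 0.05: 23 in DN3a, 1 in DN3b and 0 in DN4.

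All 3 measured proteins of the box C/D snoRNP rose in DN3a cells. Fbl encodes fibrillarin, the methyltransferase of the particle, and had log2 signals of 11.81, 11.61, 11.74 and 11.86 in untreated cultures of sorts 1 to 4 and of 12.30, 11.98, 12.45 and 12.56 with IL7. Nop56, a core scaffold protein of the same particle, stood at 8.74, 9.24, 9.24 and 9.51 untreated and at 9.61, 9.78, 9.76 and 10.32 with IL7. Neither gene's cultures overlapped: Fbl rose by 0.57 ± 0.08 (SE, n = 4 pairs, limma adjusted p = 0.000175) and Nop56 by 0.69 ± 0.08 (adjusted p = 4.16e-05). Nop58, the partner of Nop56 in the particle, rose by 0.38 ± 0.06 (adjusted p = 0.000979).

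Of the box H/ACA snoRNP, Gar1 and Nhp2 rose and Nop10 did not pass the test (0.20 ± 0.10). Gar1 had log2 signals of 10.93, 10.69, 11.05 and 11.13 untreated and 11.58, 11.33, 11.73 and 11.90 with IL7. Nhp2, which like Gar1 is a small core protein of the particle, had 10.72, 10.51, 10.64 and 10.69 untreated and 11.10, 10.95, 11.24 and 11.48 with IL7. Both genes were higher with IL7 in every sort without overlap, Gar1 by 0.69 ± 0.06 (limma adjusted p = 3.03e-06) and Nhp2 by 0.56 ± 0.08 (adjusted p = 0.00021). A further probe of Nhp2 gave a smaller change of 0.19 that did not pass the test.

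The nucleolar scaffold and chaperone genes behaved otherwise. Ncl encodes nucleolin, an abundant RNA-binding protein of the nucleolus, and its log2 signals of 9.20, 9.24, 9.31 and 9.38 untreated overlapped with 9.29, 9.14, 9.38 and 9.44 with IL7. Npm1 encodes the histone and ribosome chaperone nucleophosmin, and stood at 14.23, 14.34, 14.39 and 14.23 untreated and 14.28, 14.34, 14.30 and 14.17 with IL7. Neither passed the test, with a change of 0.03 ± 0.09 for Ncl (limma adjusted p = 0.861) and of -0.02 ± 0.07 for Npm1 (adjusted p = 0.855).

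Among genes for RNA polymerase I and ribosomal DNA transcription, 3 of 4 rose. Polr1a encodes the largest subunit of the polymerase, and had log2 signals of 9.14, 8.88, 9.19 and 9.44 untreated and 9.41, 9.56, 9.97 and 10.18 with IL7. These cultures overlapped between sorts, as the IL7 value of sort 1 lay under the untreated value of sort 4, but within each sort IL7 was higher. Ddx21, an RNA helicase that in human cells couples polymerase I transcription to RNA processing, went from 8.40, 8.61, 8.63 and 8.46 to 9.29, 9.07, 9.26 and 9.12 without overlap. The rise was 0.62 ± 0.08 for Polr1a (limma adjusted p = 0.000222), 0.66 ± 0.10 for Ddx21 (adjusted p = 0.000529) and 0.50 ± 0.09 for Mybbp1a, a nucleolar protein that interacts with MYB (adjusted p = 0.00143). Polr1c, a subunit shared by RNA polymerases I and III, had 8.13, 7.99, 7.97 and 7.68 untreated and 7.99, 8.14, 7.83 and 8.18 with IL7. Its groups overlapped, and the change was 0.09 ± 0.12 (adjusted p = 0.651).

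The small subunit factors were split, with 5 of 11 risen. Rrp12, a factor that in yeast takes part in late maturation and export of pre-ribosomes, changed most of all 37 genes: its log2 signals were 7.78, 7.57, 8.18 and 8.40 untreated and 8.89, 8.66, 9.48 and 9.66 with IL7. Heatr1, whose yeast counterpart is a subunit of the processome that forms on the nascent RNA, had 10.25, 10.12, 10.39 and 10.49 untreated and 10.88, 10.63, 11.18 and 11.31 with IL7. Neither overlapped; Rrp12 rose 2.29-fold (log2 1.19 ± 0.08, limma adjusted p = 4.43e-07) and Heatr1 1.61-fold (0.68 ± 0.07, adjusted p = 2.42e-05). Noc4l rose by 0.60 ± 0.11, Rrp9, a protein of the U3 snoRNP, by 0.46 ± 0.13, and Wdr75 by 0.42 ± 0.10. Imp4 (0.16), Rcl1 (0.17), Nop14 (0.04), Nat10 (0.27), Tsr1 (0.03) and Utp15 (-0.13) did not pass the test, and the last 3 were detected on 13 or fewer arrays.

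The PeBoW complex, which processes the large subunit precursor, had measured values for Bop1 and Pes1 only. Bop1 stood at 6.29, 6.56, 6.10 and 6.72 untreated and at 7.30, 7.12, 7.24 and 7.83 with IL7, without overlap, and rose by 0.96 ± 0.12 (limma adjusted p = 9.83e-05). Pes1 had 8.21, 8.27, 8.33 and 8.11 untreated and 8.33, 8.14, 8.39 and 8.30 with IL7, with overlap and a change of 0.06 ± 0.07 (adjusted p = 0.59). Whether the changes of Bop1 and Pes1 differ from each other was not tested.

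Of the other large subunit factors, 9 of 12 rose. Noc3l, whose yeast counterpart joins early large subunit particles, went from 5.54, 5.99, 5.84 and 6.23 to 6.22, 6.33, 6.83 and 6.96, with the groups just overlapping and every sort higher with IL7. Mrto4, whose yeast counterpart holds the place of the stalk protein during assembly, went from 8.14, 8.21, 8.07 and 8.37 to 8.53, 8.77, 8.89 and 9.12. Nle1, a notchless homolog whose yeast counterpart is removed from late particles by an ATPase, went from 7.39, 7.19, 7.23 and 7.61 to 7.97, 7.81, 7.93 and 8.04. Mrto4 and Nle1 did not overlap. The changes were 0.69 ± 0.11 (Noc3l, limma adjusted p = 0.000628), 0.62 ± 0.08 (Mrto4, adjusted p = 0.000103) and 0.58 ± 0.09 (Nle1, adjusted p = 0.000491).

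Ppan, a dim probe with 5.58, 5.90, 5.34 and 5.69 untreated and 5.93, 6.07, 6.62 and 6.67 with IL7, did not overlap but had a wide error, at 0.70 ± 0.22 (limma adjusted p = 0.0415); its call was lost in 7 of 14 alternatives. Rrp1b, a nucleolar protein that binds chromatin, went from 8.66, 8.33, 8.82 and 8.65 to 8.92, 8.80, 8.88 and 9.31 and rose by 0.37 ± 0.10 (adjusted p = 0.0199), with overlap. Grwd1 (0.63 ± 0.12), Ebna1bp2 (0.54 ± 0.12), the nucleolar GTPase gene Gnl3 (0.51 ± 0.07) and the helicase gene Ddx18 (0.33 ± 0.07) also rose. The rRNA methyltransferase gene Nop2 (0.36 ± 0.13), Ftsj3 (0.31 ± 0.17) and Nip7 (0.26 ± 0.09) did not pass the test.

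Of the 23 genes that rose in DN3a cells, Bop1, Ddx21, Gar1, Heatr1, Noc3l, Nop56 and Rrp12 passed the test in all 14 alternative settings, and none of the 23 changed direction in any. With the authors' log2 values the differences were smaller, at 0.56 for Bop1, 0.35 for Grwd1 and 0.33 for Noc3l. Over all alternatives, the change of Ppan ran from 0.31 to 0.87 and that of Rrp1b from 0.27 to 0.57. Without sorts 1 and 3, 15 genes rose with a median of 0.52, and without sorts 2 and 3, 10 genes rose with a median of 0.50. Of all 8820 genes, 325 and 262 rose in these settings, against 833 with all sorts. Other probes of the same genes, 22 in all, gave the same call as the probe shown in 13 cases and the same sign in 19. Probes other than the one shown did not pass the test for Ebna1bp2 (-0.10 and 0.37), Gnl3 (0.25), Nhp2 (0.19), Rrp1b (0.08, detected on 4 arrays) and Heatr1 (-0.25, detected on 4 arrays), although another probe of Heatr1 rose (0.79). Imp4 (0.43), Nop2 (0.50) and Rcl1 (0.26) rose at a probe other than the one shown, and a further probe of Rcl1 was at -0.12.

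**Figure D2:**
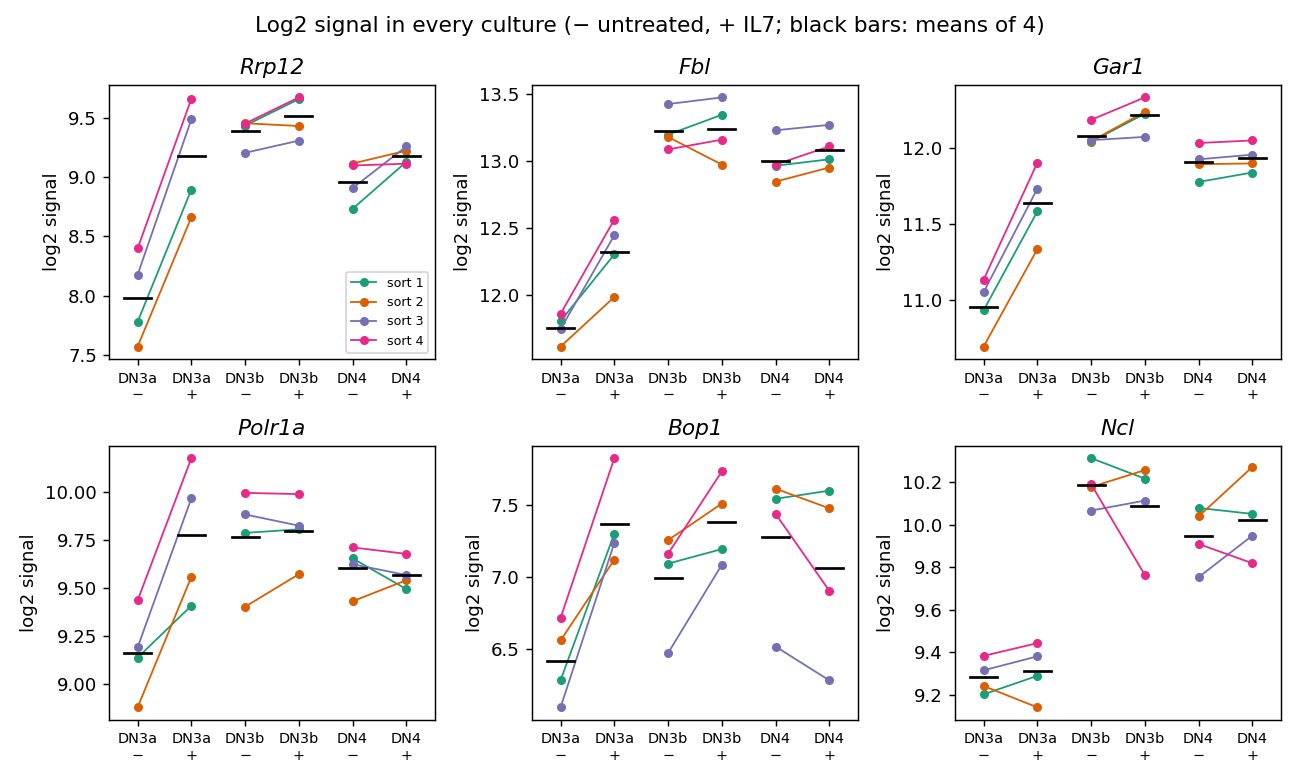
Log2 signal (y axis) of Rrp12, Fbl, Gar1, Polr1a, Bop1 and Ncl in the 24 cultures, with untreated (−) and IL7-treated (+) cultures of each subset joined by sort (colours) and means of 4 as black bars. In DN3a cells the lines rise in all 4 sorts for each gene but Ncl, whose change is 0.03, and scales differ between genes.

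In DN3b cells the same IL7 treatment moved these genes little. Nop58 alone rose past the threshold, by 0.23 ± 0.06 (limma adjusted p = 0.0359), so that 1 of 37 was higher and 0 lower where 4.8% of all genes were higher and 5.01% lower. The median change was 0.12 against -0.01 over all genes, 32 of 37 changes were above 0, and in 2 genes the cultures did not overlap, both with IL7 higher; among all genes, 4.55% were higher and 4.31% lower without overlap. Rrp12 had log2 signals of 9.43, 9.45, 9.20 and 9.45 untreated and 9.65, 9.43, 9.31 and 9.67 with IL7, a change of 0.13 ± 0.08 (adjusted p = 0.39). Bop1 had 7.10, 7.26, 6.47 and 7.16 untreated and 7.20, 7.51, 7.09 and 7.74 with IL7, higher in every sort but overlapping, at 0.39 ± 0.12 (adjusted p = 0.0632). The call of Nop58 was lost when any 1 sort was left out.

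In DN4 cells, 0 of 37 genes passed the test in either direction in limma, where 1.86% of all genes were higher and 0.578% lower. The median change was 0.03 against -0.01 over all genes. Rrp12 stood at 8.73, 9.11, 8.91 and 9.10 untreated and at 9.13, 9.22, 9.26 and 9.11 with IL7 (0.22 ± 0.08, limma adjusted p = 0.266), with the highest IL7 value in sort 3 and overlap. Bop1 stood at 7.55, 7.62, 6.52 and 7.44 untreated and at 7.60, 7.48, 6.28 and 6.91 with IL7 (-0.21 ± 0.12, adjusted p = 0.575), with sort 3 lowest in both groups. Without overlap, 2 genes were higher and 1 lower with IL7, where 2.14% and 1.38% of all genes were.

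**Figure D3:**
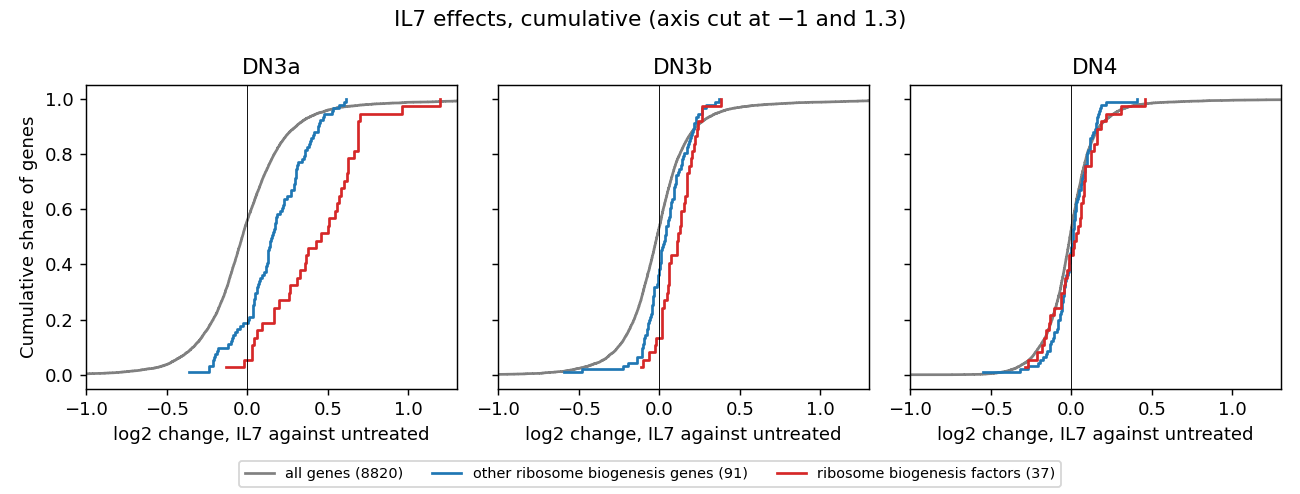
Cumulative share of genes (y axis) by log2 change with IL7 (x axis) in DN3a, DN3b and DN4 cells for the 37 ribosome biogenesis factors (red), 91 other ribosome biogenesis genes (blue) and all 8820 genes (grey). The red curve lies furthest to the right in DN3a, with a median of 0.46, and has medians of 0.12 in DN3b and 0.03 in DN4.

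The difference between subsets was tested directly. The IL7 effect was smaller in DN3b than in DN3a cells in 9 of the 37 genes and larger in 0, where 0.964% of all genes had a smaller and 0.737% a larger effect. These were Rrp12 (-1.06 ± 0.11, limma adjusted p = 0.000486), Nle1 (-0.70 ± 0.13), Mrto4 (-0.64 ± 0.11), Polr1a (-0.59 ± 0.12), Fbl (-0.55 ± 0.11), Gar1 (-0.55 ± 0.08), Nhp2 (-0.54 ± 0.11), Heatr1 (-0.52 ± 0.10) and Nop56 (-0.47 ± 0.11, adjusted p = 0.0498). Between DN4 and DN3a cells it was smaller in DN4 in 14 genes and larger in 0, where 2.73% of all genes had a smaller and 2.63% a larger effect. Bop1 differed most (-1.17 ± 0.17, adjusted p = 0.00162), before Rrp12 (-0.98 ± 0.11), Noc3l (-0.85 ± 0.15) and Mybbp1a (-0.79). Between DN4 and DN3b cells 0 genes differed in limma, where 0.068% of all genes had a larger and 0.238% a smaller effect. The median difference was -0.36 for DN3b against DN3a, -0.44 for DN4 against DN3a and -0.07 for DN4 against DN3b, against 0.02, 0.02 and 0.01 over all genes.

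None of these 23 calls held in every alternative (0 of 9 and 0 of 14). Among the 22 other probes of the 37 genes, the call was the same in 17 cases for DN3b against DN3a. For DN4 against DN3a it was the same in 12 of 22. The sign was the same in 17 and 18 cases. Without background correction and with the authors' log2 values, the median difference for DN3b against DN3a was -0.20 and -0.19, and the difference of Bop1 and of Noc3l for DN4 against DN3a shrank to as little as -0.69 and -0.43. The number of such differences fell with the number of sorts. In place of 9 genes with a smaller effect in DN3b, 4 passed without sort 1 and 1 passed without each of sorts 2, 3 and 4. Over all genes, 85 had a smaller effect with all sorts and 32, 30, 30 and 36 without sorts 1, 2, 3 and 4. In place of 14 genes in DN4, 9, 8, 7 and 5 passed without sorts 1, 2, 3 and 4. Over all genes, the 241 with a smaller effect in DN4 became 123, 109, 112 and 97. Without sorts 1 and 3 and without sorts 2 and 3, 0 of the 37 genes passed either test, while the medians stayed at -0.30 and -0.34 (DN3b) and at -0.43 and -0.46 (DN4). Of all 8820 genes, 0 and 0 had a smaller or larger effect in DN3b in these settings. In DN4, 19 and 5 of all genes had a smaller and 5 and 1 a larger effect.

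The second question was how these genes differ between untreated subsets. DN3b cells, which have passed beta-selection and were gated as large and high in CD71, were higher than DN3a cells in 30 of 37 genes and lower in 0, where 24.9% of all genes were higher and 31% lower. The median log2 difference was 0.57, a 1.48-fold higher signal, against -0.03 over all genes, and each of the 37 differences was above 0. In 24 genes the groups did not overlap, with DN3b higher in each; among all genes, 19.7% were higher and 25.4% lower without overlap. The summed marker signals moved between the same untreated groups: from DN3a to DN3b cells the natural killer list went from 1807 to 2222 down to 191 to 374, the B cell sum from 1149 to 1613 down to 465 to 616, the dendritic sum from 137 to 196 down to 74 to 105 and the T lineage sum from 94141 to 107515 down to 57601 to 62518. In untreated DN4 cells these sums were 54 to 83, 394 to 440, 71 to 92 and 56268 to 63373. Their part in the stage differences was not tested. The size and CD71 gates, set to separate these subsets, cannot be told apart from the stage. The label protocol names 250 ng of total RNA and the arrays were quantile-normalized, so all differences are relative to the other signals on the array. By sort, the median was 0.65, 0.63, 0.63 and 0.46.

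**Figure D4:**
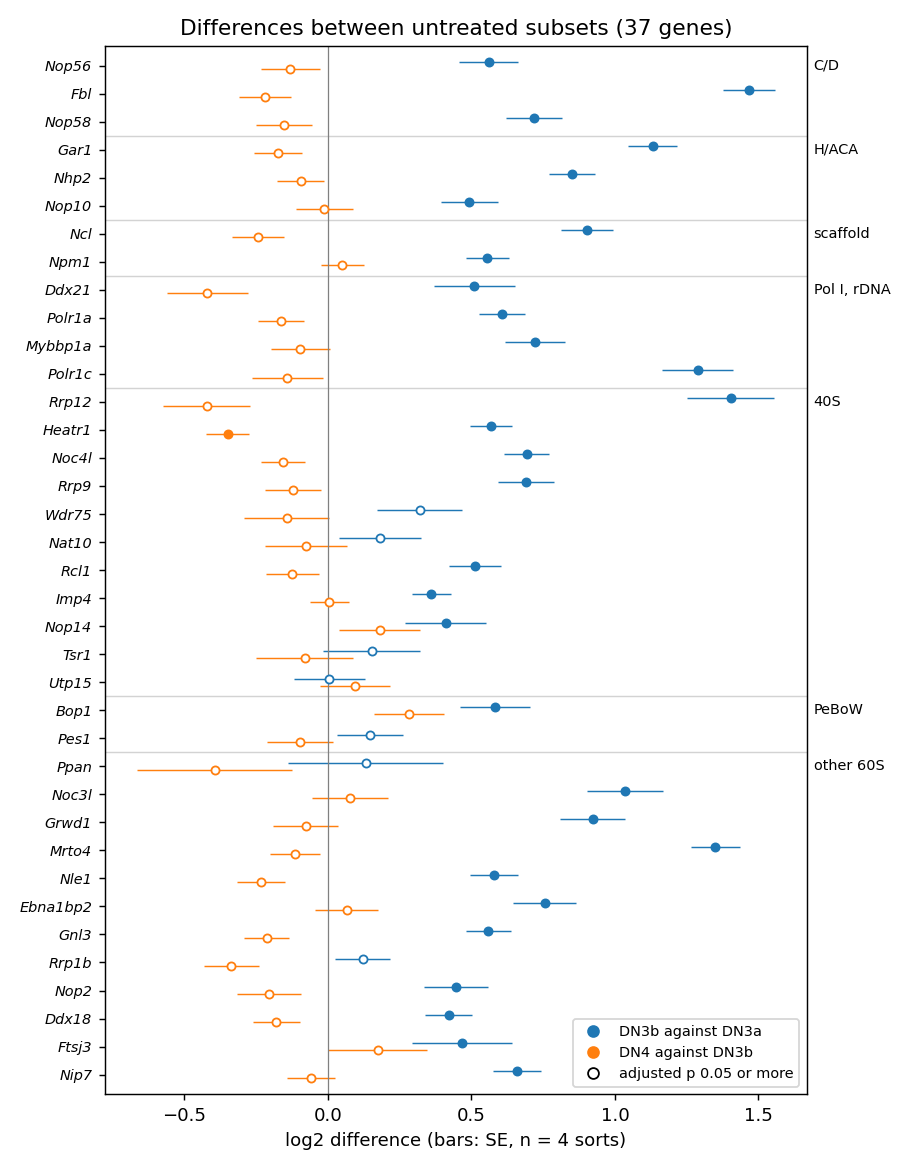
Log2 difference (x axis) of the 37 genes grouped by role (y axis) between untreated DN3b and DN3a cells (blue) and between untreated DN4 and DN3b cells (orange). Bars are limma's moderated SE for 4 sorts, with a spread estimate shared by the 12 untreated arrays. Filled points have an adjusted p under 0.05: 30 are higher in DN3b than in DN3a, and 1, Heatr1, is lower in DN4 than in DN3b.

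By role, the difference held for 3 of 3 box C/D and 3 of 3 box H/ACA proteins. Fbl stood at 13.20, 13.18, 13.43 and 13.09 in the 4 sorts of untreated DN3b cells, each above every untreated DN3a value given earlier, and was 2.76-fold higher (log2 1.47 ± 0.09, limma adjusted p = 5.26e-07), the largest of the 37 differences. Gar1 stood at 12.04, 12.05, 12.05 and 12.19 (1.13 ± 0.08, adjusted p = 1.93e-06), and Nhp2 at 11.46, 11.53, 11.47 and 11.50 (0.85 ± 0.08, adjusted p = 1.05e-05), neither with overlap. Nop56 stood at 9.63, 9.62, 9.87 and 9.85 and was higher by 0.56 ± 0.10 (adjusted p = 0.000957), again without overlap.

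Both scaffold genes, which had not moved past the threshold with IL7, differed here. Ncl stood at 10.31, 10.18, 10.07 and 10.19 in DN3b cells, all above the DN3a values, and was higher by 0.90 ± 0.09 (limma adjusted p = 1.44e-05). Npm1 stood at 14.86, 14.94, 14.78 and 14.83, and was higher by 0.56 ± 0.08 (adjusted p = 0.000119), also without overlap. Polr1c stood at 9.32, 9.47, 9.13 and 9.01, more than 1 unit above its DN3a mean of 7.94, and was 2.44-fold higher (1.29 ± 0.12, adjusted p = 1.06e-05). Of the other polymerase I genes, Polr1a was higher by 0.61 ± 0.08, Mybbp1a by 0.72 ± 0.10 and Ddx21 by 0.51 ± 0.14, so that 4 of 4 differed.

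In the small subunit group 7 of 11 genes were higher. Rrp12 was higher by 1.40 ± 0.15 (limma adjusted p = 2.48e-05) and Heatr1, at 10.87, 10.63, 11.02 and 11.02, by 0.57 ± 0.07 (adjusted p = 8.72e-05); both lay above their DN3a values without overlap. Wdr75 (0.32), Nat10 (0.18), Tsr1 (0.15) and Utp15 (0.00) did not pass the test. For the PeBoW genes, Bop1 was higher by 0.58 ± 0.12 (adjusted p = 0.00211), with its sort 3 value of 6.47 inside the DN3a range, and Pes1 stood at 8.65, 8.20, 8.14 and 8.51, with overlap and a difference of 0.15 ± 0.12 (adjusted p = 0.316).

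Of the other large subunit factors, 10 of 12 were higher. Mrto4 stood at 9.55, 9.44, 9.67 and 9.54 (1.35 ± 0.09, limma adjusted p = 6.93e-07), Noc3l at 7.04, 6.91, 6.96 and 6.84 (1.04 ± 0.13, adjusted p = 7.84e-05) and Nle1 at 7.93, 7.85, 7.95 and 8.01 (0.58 ± 0.08, adjusted p = 0.000191). None of these groups overlapped with untreated DN3a cells. Over the alternatives, the difference of Noc3l fell to as little as 0.52, that of Grwd1 to 0.53 (0.92 as fitted) and that of Bop1 to 0.33. The exceptions were Ppan, at 5.21, 6.04, 6.02 and 5.77 (0.13 ± 0.27, adjusted p = 0.713), and Rrp1b, at 8.65, 8.39, 8.94 and 8.96 (0.12 ± 0.10, adjusted p = 0.312), both of which overlapped. The count was 29 without sorts 1 and 3 and 27 without sorts 2 and 3. Over all genes, 1693 and 1581 were higher in these settings, against 2195 with all sorts. At other probes the call was the same in 14 of 22 cases: Nhp2 (-0.13), Ebna1bp2 (-0.02), Heatr1 (-0.02), Nop2 (0.25), Polr1a (0.31) and Rcl1 (0.47) did not pass the test at a further probe, and Rrp1b (0.62) and Wdr75 (0.55) were higher at one.

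From DN3b to DN4, both gated as large and high in CD71, 29 of the 37 untreated differences were below 0 and 8 above. Heatr1 was lower in DN4 cells, at 10.49, 10.40, 10.67 and 10.57, by 0.35 ± 0.07 (limma adjusted p = 0.0289), with 1 value, that of sort 3, inside the DN3b range. It was the only one of 37 past the threshold, with 0 higher, where 1.45% of all genes were higher and 2.57% lower, and the call was lost without any 1 sort. Rrp12, from a mean of 9.38 to 8.96, and Ddx21, from 9.04 to 8.62, had the largest differences, both -0.42 and lower in all 4 sorts (limma adjusted p = 0.175 and 0.145). Without background correction they passed the test, at -0.37 and -0.36 (adjusted p = 0.0317 and 0.037), as they did with the authors' log2 values (adjusted p = 0.0293 and 0.0355). The median difference was -0.12 against -0.01 over all genes. In 3 genes the DN4 cultures were lower without overlap, as 4.14% of all genes were, while 0 were higher without overlap (2.87% of all genes). S100a8, a granulocyte gene, was higher in DN4 than in DN3b cells by 3.57 ± 0.79 (adjusted p = 0.0362); its part in these values was not tested, and without sorts 2 and 3, where it was highest, the median difference of the 37 genes was -0.09.

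Untreated DN4 cells were higher than untreated DN3a cells in 28 of 37 genes and lower in 0, where 26.8% of all genes were higher and 32.4% lower. This comparison and that of DN3b with DN3a share the untreated DN3a arrays and are not independent of each other. The median difference was 0.54 against -0.02 over all genes, and in 18 genes DN4 cells were higher without overlap and in 0 lower, where 20.2% of all genes were higher and 26.4% lower in this way. Fbl was higher by 1.25 ± 0.09, Mrto4 by 1.24 ± 0.09, Polr1c by 1.15 ± 0.12 and Noc3l by 1.11 ± 0.13. Ddx21, which had been higher in DN3b, stood at 8.80, 8.79, 8.52 and 8.36 in DN4 cells, within reach of the DN3a values, at 0.09 ± 0.14 (limma adjusted p = 0.613). Ppan (-0.26 ± 0.27) and Rrp1b (-0.21 ± 0.10) had values below 0 that did not pass the test, and Ppan was detected on 2 of 4 untreated DN4 arrays. The count was 24 when sorts 1 and 3 were left out and 23 when sorts 2 and 3 were. Over all genes, 1931 and 1795 were then higher, against 2363 with all sorts. Other probes gave the same call in 10 of 22 cases. Nhp2 (-0.08), Ebna1bp2 (0.00), Nop10 (0.48), Polr1a (0.17), Heatr1 (0.26 and 0.22) and Rcl1 (0.21 and 0.20) did not pass the test at a further probe, while Wdr75 (0.48), Rrp1b (0.36) and Nop2 (0.46 and 0.54) were higher at one.

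The medians over the 37 genes on each array put both factors side by side. Relative to the mean of untreated DN3a cultures, untreated DN3a cultures of sorts 1 to 4 lay at -0.06, -0.04, 0.01 and 0.13 and IL7-treated ones at 0.31, 0.24, 0.48 and 0.70. Untreated DN3b cultures lay at 0.57, 0.54, 0.61 and 0.66 and untreated DN4 cultures at 0.54, 0.51, 0.42 and 0.57. IL7-treated DN3a cultures were thus above all untreated DN3a cultures, and that of sort 4 was above all untreated DN3b cultures. With IL7, DN3b cultures lay at 0.73, 0.70, 0.67 and 0.87 and DN4 cultures at 0.59, 0.55, 0.41 and 0.52.

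**Figure D5:**
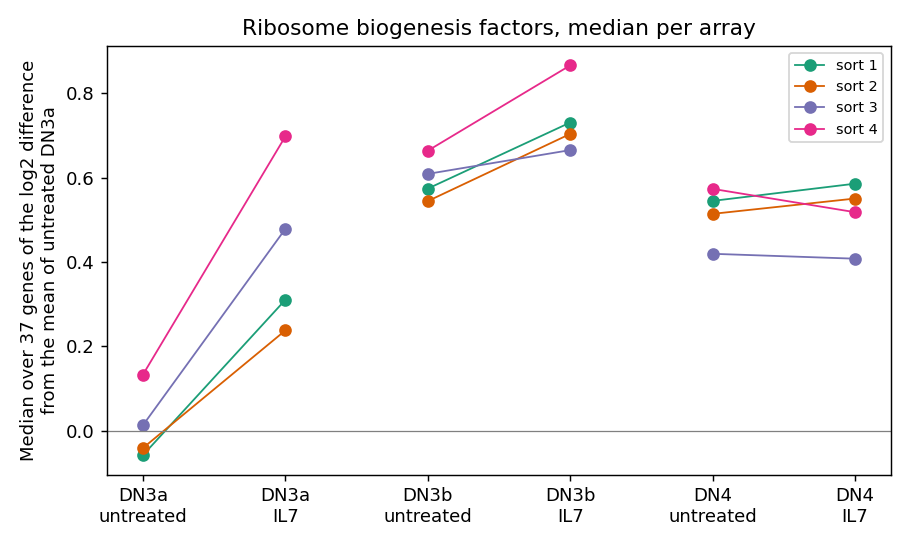
Median over the 37 genes of the log2 difference from the mean of untreated DN3a cells (y axis) for each of the 24 arrays, by group (x axis) and sort (colours), with the cultures of a pair joined. IL7-treated DN3a cultures lie at 0.24 to 0.70, and untreated DN3b cultures at 0.54 to 0.66.

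With IL7 in all subsets, fewer of these genes separated the stages. IL7-treated DN3b cells were higher than IL7-treated DN3a cells in 15 of 37 genes and lower in 0, where 23% of all genes were higher and 27.7% lower, with a median difference of 0.30. In 10 genes DN3b was higher without overlap and in 0 lower, where 18.5% of all genes were higher and 22.7% lower in this way. The genes with the largest differences were Polr1c (1.14 ± 0.13), Fbl (0.92 ± 0.10), Ncl (0.78 ± 0.13), Npm1 (0.75 ± 0.08) and Mrto4 (0.71 ± 0.10). Nop56 (0.09 ± 0.10), Polr1a (0.02 ± 0.12), Heatr1 (0.04 ± 0.11) and Bop1 (0.01 ± 0.23) did not pass the test, and Rrp12 was at 0.34 ± 0.18 (limma adjusted p = 0.143). Leaving out sorts 1 and 3 left 10 genes higher, and leaving out sorts 2 and 3 left 7. Over all genes, 1451 and 1090 were then higher, against 2027 with all sorts. At other probes of the 37 genes the call was the same in 12 of 22 cases.

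IL7-treated DN4 cells were higher than IL7-treated DN3a cells in 9 of 37 genes and lower in 4, where 24.5% of all genes were higher and 29.5% lower. The count of higher genes was thus close to the share of all genes, and that of lower genes lay below it. Higher were Polr1c (0.90 ± 0.13), Fbl (0.76 ± 0.10), Ncl (0.71 ± 0.13), Mrto4 (0.67 ± 0.10) and Npm1 (0.58 ± 0.08), together with Nip7, Gar1, Nop58 and Imp4. Lower were Ppan (-0.65 ± 0.20), Rrp1b (-0.52 ± 0.12), Ddx21 (-0.43 ± 0.12) and Heatr1 (-0.31 ± 0.11, limma adjusted p = 0.0328). Without overlap, 6 genes were higher and 2 lower, where 18.6% and 23.4% of all genes were, so neither count exceeded its share. The sorts disagreed in sign, with a median over the 37 genes of 0.24 and 0.39 in sorts 1 and 2 and of -0.11 and -0.09 in sorts 3 and 4. Without sorts 1 and 3, 5 genes were higher and 2 lower, and without sorts 2 and 3, 4 were higher and 1 lower. Over all genes, 1672 and 1315 were then higher, against 2160 with all sorts, and 1976 and 1614 lower, against 2598. At other probes of the 37 genes the call was the same in 17 of 22 cases. Against IL7-treated DN3b cells, IL7-treated DN4 cells were lower in 2 genes and higher in 0, where 3.59% of all genes were lower and 2.44% higher. The 2 genes were Ddx21 (-0.50 ± 0.12, limma adjusted p = 0.0363) and Gnl3 (-0.35). The median difference was -0.23 against -0.0021 over all genes, and 3 of the 37 differences were above 0. Of the 37 genes, 0 were lower without sort 2, 3 or 4, where 133, 203 and 156 of all genes were, against 317 with all sorts. Without background correction and with the authors' log2 values 10 genes were lower. In a fit of all 24 arrays with sorts as replicate block 9 were, and with median scaling 0. In 8 genes the DN4 values were lower without overlap and in 0 higher, where 5% of all genes were lower and 3.85% higher in this way.

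A wider list of 122 other ribosome biogenesis genes, 91 of them measured, had lower medians than the 37 genes in DN3a cells. Both lists were chosen with earlier results of these data known, and the gap between them was not tested. With IL7 in DN3a cells 30 of 91 rose and 1 fell, with a median of 0.15: Nol10 rose by 0.61 ± 0.09, Rrp15, a large subunit factor, by 0.60 ± 0.07 and Wdr46, a small subunit processome protein, by 0.57 ± 0.11. The gene that fell was Tcof1, whose product treacle aids ribosomal DNA transcription (-0.36 ± 0.09, limma adjusted p = 0.014). By role, 13 of 32 small subunit, 14 of 34 large subunit, 1 of 9 nuclear exosome, 1 of 7 snoRNP assembly and 1 of 9 polymerase I genes rose, where 9.44% of all genes did; the last 3 groups differ from that share by less than 1 gene. In DN3b cells Nol10 (0.37) and Utp4 (0.26) rose and in DN4 cells Surf6 (0.41), while Taf1c, a subunit of the polymerase I initiation factor, fell in both (-0.59 ± 0.10 and -0.55 ± 0.10). The DN3b count, 2 of 91, lies below the share of all genes that rose, 4.8%. The DN4 count, 1 of 91, differs from its share, 1.86%, by less than 1 gene. The IL7 effect was smaller in DN3b than in DN3a cells in 1 of 91 genes, Rrp15 (-0.55 ± 0.10), close to the share of all genes, 0.964%. It was smaller in DN4 than in DN3a cells in 5, among them Rrp15 (-0.64 ± 0.10) and Sdad1 (-0.57 ± 0.15), where 2.73% of all genes had a smaller effect.

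Between untreated DN3b and DN3a cells, 47 of the 91 wider genes were higher and 5 lower. Pa2g4 was higher by 1.20 ± 0.13, Snu13, a protein shared by box C/D and U4 particles, by 1.12 ± 0.12 and Rrp15 by 1.10 ± 0.09. Utp23 (-0.45 ± 0.11), the polymerase I subunit gene Cd3eap (-0.43 ± 0.10) and the exosome gene Exosc4 (-0.42 ± 0.08) were lower. By role, 6 of 7 snoRNP assembly genes were higher and 0 lower, 18 and 0 of 34 large subunit, 15 and 1 of 32 small subunit and 5 and 1 of 9 exosome genes, where 24.9% of all genes were higher and 31% lower. Of the 9 polymerase I genes 3 were higher and 3 lower, close to those shares in both directions. Between untreated DN4 and DN3b cells 0 of 91 passed the test in limma, where 1.45% of all genes were higher and 2.57% lower. Between untreated DN4 and DN3a cells 47 were higher, led by Snu13 (1.34 ± 0.12), Pa2g4 (1.19 ± 0.13) and Krr1 (1.08 ± 0.11), and 7 were lower, led by Utp23 (-0.74 ± 0.11), Cd3eap (-0.71 ± 0.10) and Exosc4 (-0.44 ± 0.08). Over all genes, 26.8% were higher and 32.4% lower in this comparison.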

How the data were processed

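RNA of 24 thymocyte cultures was measured on Illumina Ref8v2 mouse arrays. Linear intensities of 25697 probes were deposited, with a detection p-value in the next column per the file headers. Array medians of 93.3 to 119.8 show that these intensities were not normalized. The authors' log2 values stand in another deposited table; they had 1 median in every column (6.734) and lay within 0.084 of the log2 of quantile-normalized, uncorrected intensities, with higher values for more signal and no centring. GenomeStudio 2011.1 and, in the design text, R Bioconductor 2.13.0 are named per the submitters' processing notes. Number of per-sample columns left unused: 0.

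Intensities were background-corrected with neqc in limma 3.58.1 (R 4.3.3), with controls inferred from the detection p-values, an offset of 16, quantile normalization and log2; the offset compresses changes of dim probes. Gene names were RefSeq symbols looked up by the gene identifier of the probe (23962 probes), and otherwise those of the platform annotation. This gave 23978 probes with 1 symbol and 1719 without. Probes with a detection p under 0.05 on 4 or more arrays entered (12939 probes, 12158 named), and the probe with the highest mean stood for each of 8820 genes. Other probes were fitted separately over the 12158 named probes.

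IL7 effects and their differences were fitted with limma on 24 arrays, blocked by the 12 culture pairs, comparisons of untreated subsets over 12 arrays with the 4 sorts as blocks, and those of IL7-treated subsets, added after the data were seen, in the same way. P-values were adjusted by Benjamini-Hochberg over 8820 genes (threshold 0.05). SE is limma's moderated standard error, from a spread shared by all groups of a fit and not from the pairs of a single subset. The number of arrays limits the precision. Sort numbers pair the cultures, as labelled by sort: deviations from the group means correlated at 0.238 or more within culture pairs (median 0.465), against a median of -0.089 for other sorts and groups, and 24 of 24 arrays correlated best with their own sort. No pair of arrays was identical.

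The members, their roles and the wider list were chosen with earlier results of these data known. Genes named with values for each sort were chosen by a rule: the 2 genes of each role with the largest IL7 effect in DN3a, the 5 with the largest difference at each untreated step, DN3a to DN3b and DN3b to DN4, and the 3 with the largest difference of IL7 effect between DN3a and each later subset. Up to 3 genes on each side are named from the wider list. The code was tested on simulated data with known changes. Alternatives covered normalization, filter, probe choice, blocks and left-out sorts.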

Additional observations from a re-analysis of the deposited data

Results flagged for a closer look

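The difference of IL7 effects between subsets passed the test in 23 cases, each with a smaller effect in the later subset. For DN3b against DN3a cells the differences in log2 change were -0.47 (Nop56), -0.55 (Fbl), -0.54 (Nhp2), -0.55 (Gar1), -0.59 (Polr1a), -0.52 (Heatr1), -1.06 (Rrp12), -0.64 (Mrto4) and -0.70 (Nle1). For DN4 against DN3a cells they were -0.60 (Nop56), -0.49 (Fbl), -0.57 (Nhp2), -0.66 (Gar1), -0.65 (Polr1a), -0.79 (Mybbp1a), -0.53 (Heatr1), -0.98 (Rrp12), -1.17 (Bop1), -0.85 (Noc3l), -0.53 (Gnl3), -0.68 (Ebna1bp2), -0.57 (Mrto4) and -0.52 (Nle1). Both sets use the same DN3a cultures.

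In 9 of 148 sets of 4 values, 1 sort lay apart from the other 3; chance alone marks about 1 set in 20. The median over the 37 genes stood apart in sort 4 in 3 comparisons. It was 0.00 (0.0044) for IL7 in DN4 cells against 0.04 in the other sorts. It was -0.45 for the difference of IL7 effect between DN3b and DN3a, against -0.29 to -0.28. It was 0.46 for untreated DN3b against DN3a, against 0.63 to 0.65.

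Single genes also had a sort apart. The difference of IL7 effect between DN4 and DN3a was -0.37 for Mybbp1a in sort 1 against -0.97 to -0.91 elsewhere. Npm1 was higher in untreated DN3b than DN3a cells by 0.39 in sort 3 and by 0.60 to 0.64 in the others. Gar1 was higher in untreated DN4 than DN3a cells by 1.20 in sort 2 against 0.85 to 0.90. Among IL7-treated cultures, Fbl in DN3b against DN3a was at 0.60 in sort 4 against 0.99 to 1.04, Npm1 in DN4 against DN3a at 0.53 in sort 4 against 0.60, and Nip7 in DN4 against DN3a at 0.73 in sort 2 against 0.24 to 0.30.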

How the results depend on the processing

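Of the recomputed counts and medians over the 37 genes, 421 kept their direction and size within the limits set, 73 moved and 1 turned. Many of the 421 are counts of 0 that stayed at 0, so this tally does not measure how stable the calls are. The cause of the moves was not tested. The median for IL7 in DN4 cells turned from 0.03 to -5e-04 without sorts 2 and 3. Without background correction, and with the authors' log2 values, 3 genes rose with IL7 in DN3b cells, 1 fell in DN4 cells, 4 were lower in untreated DN4 than DN3b cells, and with IL7 1 was lower in DN3b than DN3a and 10 in DN4 than DN3b cells. The medians under these settings were 0.07 (0.0741 and 0.0717) for IL7 in DN3b, -0.20 (-0.1954) and -0.19 for the difference DN3b minus DN3a, -0.32 and -0.31 for DN4 minus DN3a, and 0.403 and 0.397 for untreated DN4 against DN3a. With median scaling, 2 genes rose in DN3b with IL7, 0 were lower in DN4 than DN3b in untreated or IL7-treated cultures, and 2 were lower in IL7-treated DN4 than DN3a cells. With detection on 12 arrays, 1 gene was lower in IL7-treated DN3b than DN3a cells, and with no filter on dim probes 0 rose with IL7 in DN3b.

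Without the replicate block, 17 genes rose with IL7 in DN3a and 0 in DN3b cells, the differences of IL7 effect numbered 0 (DN3b) and 3 (DN4) in place of 9 and 14, 0 genes were lower in DN4 than DN3b cells in untreated or IL7-treated cultures, and 1 was lower in IL7-treated DN3b than DN3a cells. A separate fit of each subset, with the replicate block, gave 0 risen in DN3b. A fit of all 24 arrays with sorts as replicate block gave 9 genes lower in IL7-treated DN4 than DN3b cells.

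Leaving out 1 sort at a time gave 19 to 22 risen genes for IL7 in DN3a and 0 to 0 in DN3b, 1 to 4 and 5 to 9 differences of IL7 effect (DN3b and DN4), 28 to 31 and 26 to 28 genes higher in untreated DN3b and DN4 than DN3a, and 0 to 0 lower in untreated DN4 than DN3b. For IL7-treated cultures it gave 0 to 1 lower in DN3b than DN3a, 0 to 2 lower in DN4 than DN3b, and 5 to 9 higher with 1 to 4 lower in DN4 than DN3a. Without sorts 1 and 3, or 2 and 3, 15 and 10 genes rose with IL7 in DN3a and 0 in DN3b, 0 differences passed, 0 genes were lower in DN4 than DN3b in untreated or IL7-treated cultures, and in IL7-treated cells 5 and 4 were higher and 2 and 1 lower in DN4 than DN3a; 7 were higher in DN3b than DN3a without sorts 2 and 3. Counts over all genes fell as well. With IL7 in DN3a cells 833 of all genes rose with all sorts and 577 to 643 without 1 sort. Without sorts 1 and 3, or 2 and 3, 325 and 262 did. No called gene changed sign. A slide block was not run, since the file headers name no slides. Dim probes, such as those of Ppan and Utp15, limit what can be seen.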
